A study of Homo sapiens with 9 samples.

Results

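Condensin and the SMC5/6 complex are ring-shaped machines built on paired SMC (structural maintenance of chromosomes) ATPases, and the RNA of their core subunits is described here in a bladder cancer line with and without silencing of the cohesin subunit STAG2. The 10 genes were picked by name, as subunits of these complexes: SMC2, SMC4, NCAPD2, NCAPD3, NCAPG, NCAPG2, NCAPH, NCAPH2, SMC5 and SMC6. They are 10 of 23278 gene entries in the expression table, and all 10 were among the 11952 genes that were expressed enough to be tested.

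Condensin compacts chromosomes for cell division by pulling DNA into loops. SMC2 and SMC4 form the motor of both condensin I, which also holds NCAPD2, NCAPG and NCAPH, and condensin II, which holds NCAPD3, NCAPG2 and NCAPH2 instead. Condensin II is nuclear throughout the cell cycle, condensin I reaches chromosomes once the nuclear envelope has broken down, and SMC5/6 acts in DNA repair and in the resolution of linked sister chromatids. Cohesin, of which STAG2 is a subunit, is the other eukaryotic complex of this family.

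RT112 is an established human bladder carcinoma line. All 9 libraries came from RT112 cells transduced with a short hairpin RNA and then held in medium without serum: a control hairpin (shNT, 3 replicates), a first STAG2 hairpin (sh1, 3 replicates) and a second STAG2 hairpin (sh2, 3 replicates). The sources used here do not say whether the replicates were separate cultures, so each p-value measures the spread between these libraries, which may be technical. Values are FPKM, fragments per kilobase of transcript scaled to the mapped fragments, a unit in which levels of different genes can be set side by side. These are bulk libraries, in which fewer cells that express a gene and less of its RNA per cell cannot be told apart.

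STAG2 RNA followed the labels. It stood at 16.8, 34.7 and 27.7 FPKM in control replicates 1 to 3, at 3.76, 4.13 and 5.34 in sh1 and at 3.41, 4.93 and 3.48 in sh2. Every silenced library was below every control library, with a log2 fold change over both hairpins of -2.36 (SE 0.21, limma adjusted p = 0.00797) and an exact permutation p of 0.0238, two-sided, the smallest that 6 against 3 libraries allow. The limma call was lost without control replicate 3 (-2.30, adjusted p = 0.0561) and with no filter on low genes (adjusted p = 0.0616). STAG2 did not differ between the hairpins beyond its spread (sh2 against sh1, -0.13, interval -0.68 to 0.42, limma adjusted p = 0.851). Control replicate 1 stood apart: its FPKM summed to 516464, against 397792 to 434433 in the other 8 libraries, and its deviations fell with transcript length (Spearman's rho of -0.62 across 10721 genes, against -0.05 to 0.32). The longest coding transcript of 8 of the 10 subunit genes was above the median of 3371 bases for tested genes. Counts and medians of the 10 genes against the control are therefore also given without that library, and those of the other lists are not. Epithelial and urothelial markers were present in all libraries (EPCAM 32.0 to 77.8 FPKM, KRT7 811 to 1229 FPKM, GATA3 41.7 to 58.3 FPKM). In sh2 2 of the 9 listed markers lay wholly below the control (8.54% of tested genes). They were EPCAM (log2 fold change -0.83) and FGFR3 (-0.72), each at a limma adjusted p of 0.372. The 8 markers of immune cells, fibroblasts and endothelium summed to 3.30 to 7.23 FPKM in the control, 4.70 to 6.28 in sh1 and 4.54 to 7.88 in sh2. COL1A1 (2.19 to 6.85 FPKM) made up most of each sum, the other markers stayed at or below 0.598 FPKM, and COL1A2 was listed at 0 in every library.

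No subunit gene passed the test in any of the 4 comparisons. The clearest pattern was between the hairpins: all 10 genes had a higher mean in sh2 than in sh1, where 48.9% of tested genes did. For 7 of them every sh2 library was above every sh1 library, against 13.3% of tested genes. Their median difference of 0.35 fell to 0.19 without sh2 replicate 1. Against the control means, 7 of 10 genes were lower in sh1, where 49% of tested genes were higher. In sh2 9 of 10 were higher (48.2% of tested genes), but neither side held in all 3 replicate numbers. The gene with the largest difference was NCAPD3, the HEAT-repeat subunit of condensin II, which was lower in sh1 than in both other groups. Both comparisons with the control use the same 3 control libraries.

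Promoter sequence is shown first because most of the condensin genes hold one short element there. RefSeq promoters (GRCh38.p14, from 250 bases before to 50 bases after a start) were matched by symbol for 9 of the 10 genes, with 12 promoters between them, and NCAPH2 was not matched. The letters TTTGAA, the core of the cell cycle genes homology region (CHR) found in promoters of many mitotic genes, were looked for on both strands. They occurred in 6 of the 9 genes and 6 of their 12 promoters, against 15.2% of 35116 RefSeq promoters of the same length and 18.2% of 27305 genes. Each line gives 30 bases in the direction of transcription with the element in capitals, TTCAAA where it lies on the other strand.
SMC2, chr9:104094294-104094323, plus strand: ctcgcgccgaaaTTCAAAggaataaatagt
SMC4, chr3:160399563-160399592, plus strand: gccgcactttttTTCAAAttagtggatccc
NCAPD2, chr12:6493945-6493974, plus strand: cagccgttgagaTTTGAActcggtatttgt
NCAPG, chr4:17810932-17810961, plus strand: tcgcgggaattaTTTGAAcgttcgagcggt
NCAPD3, chr11:134223953-134223982, minus strand: gcgggagcgagcTTTGAAagttgagcacgg
NCAPG2, chr7:158704755-158704784, minus strand: gcgccggcgggtgcgTTTGAAtctggtccg
The element began 3 bases before the start in SMC2 and NCAPD3, 35 before it in NCAPG, 75 in SMC4 and 145 in NCAPD2, and at base 36 of the transcribed sequence in NCAPG2. Neither SMC5 nor SMC6 had it in these windows, nor did NCAPH.

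The same windows were searched for 10 other sets of letters. CCAAT, the box bound by NF-Y, was present in NCAPD2, NCAPH and NCAPD3, which is 3 of 9 genes against 39.7% of all genes, and no CCAAT overlapped a CHR element. The GC box GGGCGG, bound by SP-type factors, was present in 7 of 9 genes against 48.3%. E2F sites (TTTGGCGC, TTTCCCGC, TTTGCCGC, TTTCGCGC, TTTGGCGG or TTTCCCGG) were present in NCAPD3 and SMC6 (6.42% of all genes). The ETS site CCGGAAGT was present in NCAPG and SMC6 (4.95%), and the palindromic NRF1 site in SMC4 (1.52%). The other 5 sets matched none of the 9 genes. They were the CHR variant TTCGAA (1.82% of all genes), the ZNF143 element (0.282%), the cyclic AMP response element as TGACGTCA or TGACGTGG (3.15%), a YY1 element (1.04%) and a CTCF core (0.0183%). A match describes letters, and no binding was measured.

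In the control libraries the 10 genes were ordered by their level per length. NCAPD2 (60.3 ± 5.76 FPKM, SD, n = 3) and SMC4 (54.0 ± 6.40) stood highest, above 89.4% and 87.9% of tested genes, and their SDs overlapped. NCAPG2 (29.2 ± 5.96) and NCAPH2 (28.9 ± 8.83) came next and could not be ordered, and the SD of NCAPH2 reached that of NCAPG. NCAPH2, with a longest transcript of 2077 bases, read 38.5 FPKM in control replicate 1 against 27.1 and 21.1 in the other control libraries. Levels in that library fell with transcript length, and the order was not worked out without it. Below them NCAPG (18.9 ± 3.14), NCAPD3 (16.1 ± 0.358), SMC2 (14.5 ± 2.23) and NCAPH (14.3 ± 2.69) lay close together, with the SDs of neighbours overlapping. SMC5 (10.3 ± 3.95) and SMC6 (7.45 ± 0.980) were lowest, above 46.5% and 37.0% of tested genes, with SDs that overlapped each other. The SD of SMC5 also overlapped those of SMC2 and NCAPH, and its 3 control values included the 5.92 FPKM of control replicate 1. The motor subunit SMC4 was thus listed well above its partner SMC2, by a ratio of 3.74 ± 0.194 in the control, although both enter every condensin.

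**Figure D1:**
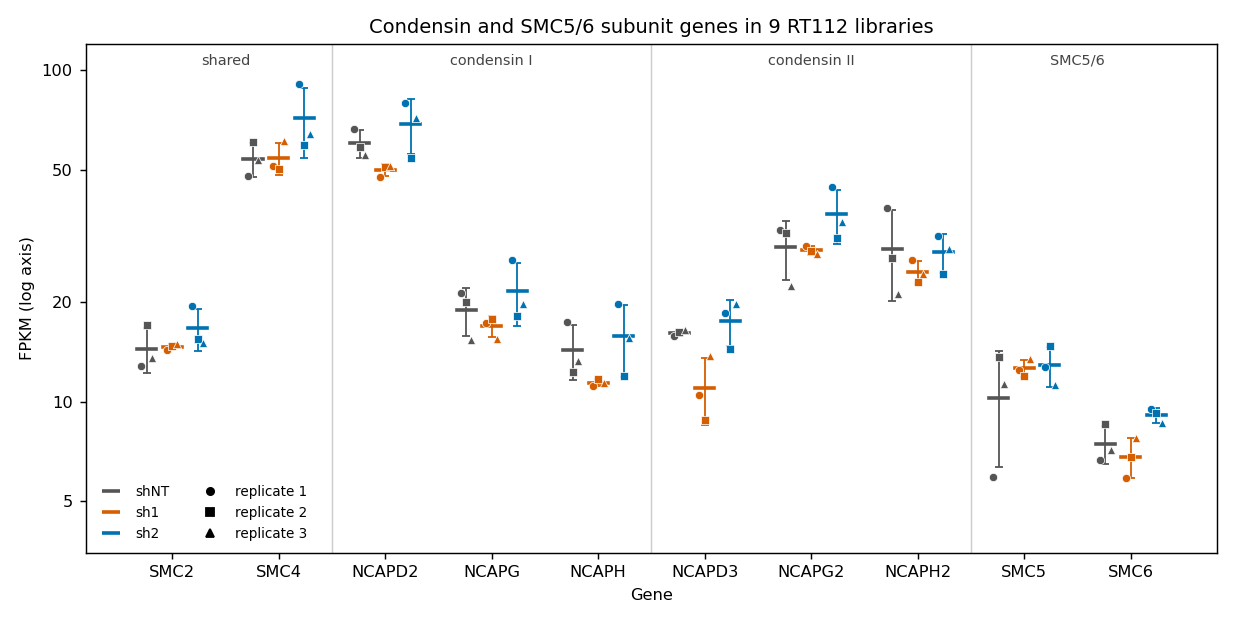
FPKM (log axis) of the 10 subunit genes in each of the 9 libraries, grouped by complex. Points are replicates 1 to 3, horizontal lines are means and bars are the SD (n = 3). The sh1 points of NCAPD3 (8.83 to 13.7) lie below all its other points, and replicate 1 of sh2 is the highest point of 7 genes.

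The shared motor subunits, SMC2 and SMC4, had means near the control in sh1 and above it in sh2, where the libraries overlapped with the control. Within replicate number 2 both were lower in sh2 than in the control, by log2 differences of -0.13 and -0.03. SMC2 stood at 12.8, 17.0 and 13.5 FPKM in the control, at 14.4, 14.7 and 14.9 in sh1 and at 19.4, 15.4 and 15.1 in sh2. All 3 sh2 libraries were above all sh1 libraries by a small margin, and the control libraries spanned most of the range. Its log2 fold changes were 0.03 (sh1 against control), 0.19 (sh2 against control) and 0.16 (sh2 against sh1, SE 0.15, limma adjusted p = 0.655). SMC4 stood at 47.8, 60.6 and 53.5 FPKM in the control, at 51.5, 50.5 and 61.4 in sh1 and at 91.1, 59.5 and 64.0 in sh2. Replicate 1 of sh2 was far above every other library, and the remaining values overlapped between groups. Its log2 fold change in sh2 against the control was 0.38 (SE 0.18, interval -0.02 to 0.78, limma adjusted p = 0.404), which became 0.20 without sh2 replicate 1, and in sh1 it was 0.01.

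The condensin I subunits each had a lower mean in sh1 than in the control and a higher one in sh2. The size of the difference in sh2 depended on the libraries used. Without sh2 replicate 1 the log2 fold changes against the control were 0.06 (NCAPD2), 0.01 (NCAPG) and -0.05 (NCAPH). With each library left out in turn they reached at most 0.33, 0.28 and 0.29 in that order. Control replicate 1, which stood apart, was the highest control library for all 3 genes. Within replicate number 2 all 3 genes were lower in sh2 than in the control, with differences of -0.11, -0.14 and -0.03 in that order. NCAPD2, the HEAT-repeat subunit that helps load the complex on DNA, stood at 66.6, 58.9 and 55.4 FPKM in the control, at 47.6, 51.1 and 51.4 in sh1 and at 79.8, 54.5 and 71.9 in sh2. Its sh1 libraries were all below both other groups, while control and sh2 overlapped. The log2 fold change was -0.26 in sh1 against control (SE 0.16, limma adjusted p = 0.498), 0.17 in sh2 against control and 0.43 in sh2 against sh1 (SE 0.16, unadjusted p = 0.0205, limma adjusted p = 0.266). NCAPH, the kleisin that closes the ring, stood at 17.4, 12.3 and 13.3 FPKM in the control, at 11.1, 11.7 and 11.4 in sh1 and at 19.7, 12.0 and 15.5 in sh2. Again every sh1 library was the lowest, although sh2 replicate 2 was only just above them. NCAPH differed by -0.29 between sh1 and control (limma adjusted p = 0.523), by 0.12 between sh2 and control and by 0.40 between sh2 and sh1 (SE 0.19, limma adjusted p = 0.364). NCAPG, the second HEAT-repeat subunit, stood at 21.3, 20.0 and 15.3 FPKM in the control, at 17.3, 17.8 and 15.5 in sh1 and at 26.8, 18.1 and 19.6 in sh2. The control spanned all of the sh1 range, and sh2 was above sh1 throughout. Its log2 fold change in sh2 against sh1 was 0.32 (SE 0.17, limma adjusted p = 0.445).

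Among the condensin II subunits NCAPD3 set itself apart from NCAPG2 and NCAPH2. NCAPD3, the counterpart of NCAPD2, stood at 15.7, 16.2 and 16.4 FPKM in the control, at 10.4, 8.83 and 13.7 in sh1 and at 18.5, 14.4 and 19.7 in sh2. The 3 control values were nearly the same, all sh1 values were below them, and the sh2 values lay on both sides of them. In sh1 against the control its log2 fold change was -0.53 (SE 0.17, interval -0.92 to -0.15, unadjusted p = 0.0114, limma adjusted p = 0.238), the largest difference from the control of any of the 10 genes. Between the hairpins it was 0.64 (SE 0.17, interval 0.25 to 1.02, unadjusted p = 0.00421, limma adjusted p = 0.167), and sh2 against the control gave 0.10 (limma adjusted p = 0.792). With the replicate number as a block and each library's length trend removed, a combination chosen after seeing the data, NCAPD3 passed between the hairpins (0.61, limma adjusted p = 0.0482). With the block alone it did not (limma adjusted p = 0.0892).

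NCAPG2, the counterpart of NCAPG, stood at 33.0, 32.3 and 22.4 FPKM in the control, at 29.6, 28.6 and 27.8 in sh1 and at 44.4, 31.1 and 34.8 in sh2. Control replicate 3 was the lowest library and all sh2 values were above the sh1 values. Its log2 fold change was -0.01 in sh1 and 0.33 in sh2 against the control, and 0.33 between the hairpins (SE 0.18, limma adjusted p = 0.432). NCAPH2, the kleisin of condensin II, stood at 38.5, 27.1 and 21.1 FPKM in the control, at 26.8, 22.9 and 24.3 in sh1 and at 31.6, 24.2 and 28.8 in sh2. The control libraries alone spanned the whole range of the hairpin libraries. NCAPH2 differed by -0.18 between sh1 and control (interval -0.63 to 0.27), and by 0.18 between sh2 and sh1 (interval -0.27 to 0.63, limma adjusted p = 0.726).

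The SMC5/6 motor subunits did not follow one another. SMC6 stood at 6.66, 8.55 and 7.15 FPKM in the control, at 5.88, 6.79 and 7.77 in sh1 and at 9.49, 9.24 and 8.59 in sh2. All 3 sh2 libraries were above all 6 others. SMC6 was the only one of the 10 genes with no overlap between sh2 and control (6.67% of tested genes lay wholly higher), and its log2 fold change there was 0.26 (SE 0.14, limma adjusted p = 0.432). Against sh1 it was 0.38 (SE 0.14, interval 0.06 to 0.69, unadjusted p = 0.0236, limma adjusted p = 0.278). SMC5 stood at 5.92, 13.6 and 11.3 FPKM in the control, at 12.5, 12.0 and 13.5 in sh1 and at 12.7, 14.7 and 11.2 in sh2. Apart from control replicate 1, the 8 libraries overlapped. Over both hairpins SMC5 differed from the control by 0.35 (SE 0.21, limma adjusted p = 0.482), which became 0.03 without control replicate 1 and 0.57 without control replicate 2. Between the hairpins its difference was 0.02 (interval -0.52 to 0.56).

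**Figure D2:**
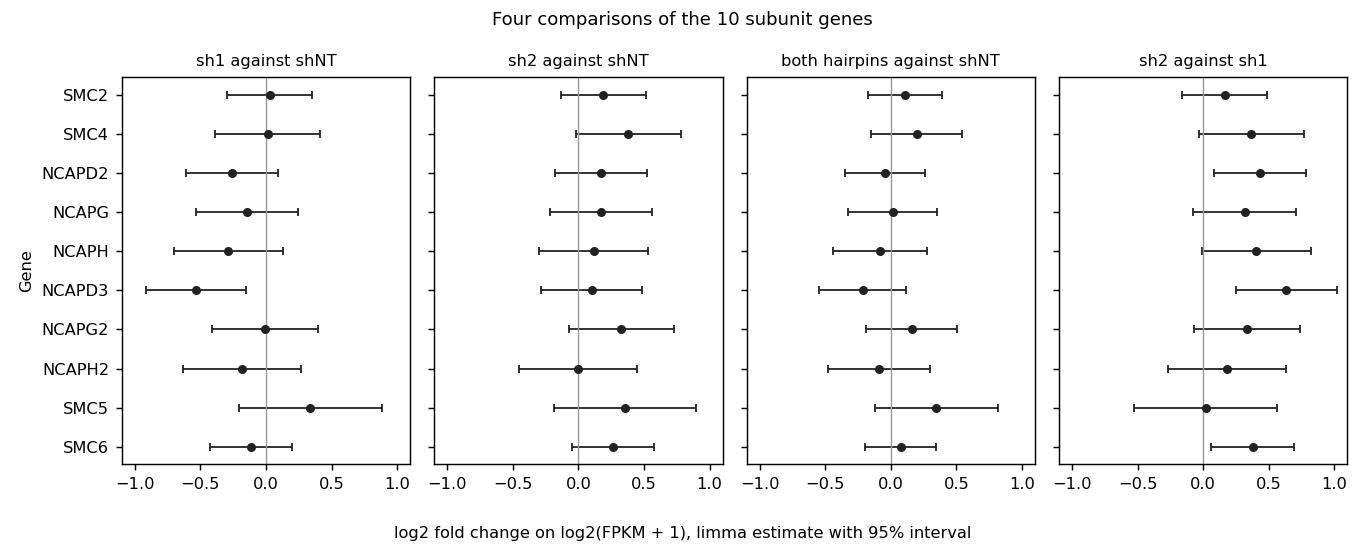
Log2 fold change on the log2(FPKM + 1) scale (horizontal axis) of each subunit gene in the 4 comparisons, as limma estimates with 95% intervals. All 10 estimates of sh2 against sh1 are above 0, from 0.02 (SMC5) to 0.64 (NCAPD3), and no gene passed an adjusted p of 0.05 in any panel.

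Counted over the 10 genes, sh1 against the control gave 3 positive and 7 negative log2 fold changes with a median of -0.13. Of all tested genes 49% were positive, and their median was -0.0074. Of the 10, 0 passed by limma, where 0.167% of tested genes did, and 1 gene, NCAPD3, had an unadjusted p under 0.05 (13.5% of tested genes). NCAPD2, NCAPH and NCAPD3 lay wholly below the control, 3 of 10 genes against 8.97% of tested genes, and 0 lay wholly above it (8.7%). The same 3 lay wholly below it without control replicate 1 (15.6% of tested genes). The median of the 10 genes, -0.13, moved to -0.061 without control replicate 1 or without control replicate 2, and to -0.23 without control replicate 3. Scaled to the spike-in RNA, which moved the median of all tested genes to 0.081, 6 of the 10 genes were negative, and with the length trend removed 9 were.

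In sh2 against the control 9 of the 10 log2 fold changes were positive, NCAPH2 being at 0, with a median of 0.18 against -0.012 for all tested genes, of which 48.2% were positive. By limma 0 of the 10 passed, where 0.00837% of tested genes did, and 0 had an unadjusted p under 0.05 (12.7% of tested genes). SMC6 alone lay wholly above the control, 1 of 10 genes against 6.67% of tested genes, and 0 lay wholly below it (8.54%). It alone did so without control replicate 1 too (11.8% of tested genes). Without control replicate 1 all 10 were positive with a median of 0.23, and 8 were positive with a median of 0.071 without sh2 replicate 1. Spike-in scaling moved the median of all tested genes to 0.21 and that of the 10 genes to 0.43.

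Over both hairpins together the 10 genes did not stand on one side of the control: 6 log2 fold changes were positive and 4 negative, with a median of 0.044 against -0.017 for all tested genes, of which 47.3% were positive. Again 0 passed by limma (0.00837% of tested genes did) and 0 had an unadjusted p under 0.05 (12.6%). None lay wholly higher (2.28% of tested genes) or wholly lower (2.17%). Without control replicate 1, 9 of 10 were positive and the median was 0.044. It was 0.11 without control replicate 2, -0.059 without control replicate 3 (4 positive and 6 negative) and -0.0061 without sh2 replicate 1 (5 and 5). With spike-in scaling 9 of 10 were positive too, and the median of all tested genes was then 0.14.

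Between the hairpins, all 10 log2 fold changes of sh2 against sh1 were positive, where 48.9% of tested genes were, and their median was 0.35 against -0.0072. This held under median-of-ratios and spike-in scaling, while SMC5 turned to -0.0099 with the length trend removed. By limma 0 of the 10 passed, where 0.218% of tested genes did, and 3 genes (NCAPD2, NCAPD3 and SMC6) had an unadjusted p under 0.05, where 14.1% of tested genes did. For 7 of the 10 genes, SMC2, NCAPD2, NCAPG, NCAPH, NCAPD3, NCAPG2 and SMC6, the sh2 libraries lay wholly above the sh1 libraries, against 13.3% of tested genes, and 0 lay wholly below them (15.3%). Without sh2 replicate 1, in which the 10 genes stood 0.38 above their own means on average, the same 7 did so (16.6% of tested genes), and the median of the 10 dropped to 0.19.

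Same-numbered libraries tended to deviate together, so sh2 was also set against sh1 within each number, although the sources used here do not state a pairing. Of the 30 differences 29 were positive, and the exception was SMC5 in replicate 3 (-0.25). Among all tested genes 48.1%, 48.4% and 50.4% were positive in replicates 1, 2 and 3. The 30 values come from 10 genes in the same 3 pairs of libraries and are not separate observations. The median over the 10 genes was 0.60 in replicate 1, 0.10 in replicate 2 and 0.27 in replicate 3, so the size of the difference varied between replicates far more than its sign. In replicate 2 the condensin I genes hardly differed (NCAPG 0.02, NCAPH 0.03 and NCAPD2 0.09), whereas NCAPD3 differed by 0.65 and SMC6 by 0.39. NCAPD3 differed in all 3 numbers, by 0.77, 0.65 and 0.49. Every gene but SMC5 was higher in all 3 numbers, 9 of 10 against 27.0% of tested genes. Against the control within numbers, 10 of 30 differences were positive for sh1 and 20 of 30 for sh2, and the sides changed with the number. For sh1 the positive differences were 3, 0 and 7 of 10 in replicates 1, 2 and 3 (medians -0.22, -0.20 and 0.12), where 47.2%, 52.1% and 49.9% of tested genes were positive. For sh2 they were 9, 2 and 9 of 10 (medians 0.37, -0.08 and 0.25), where 47.5%, 49.9% and 49.3% of tested genes were positive. For sh1 NCAPD2, NCAPH and NCAPD3 were lower in all 3 numbers (18.2% of tested genes), and for sh2 SMC6 was higher in all 3 (20.7%).

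**Figure D3:**
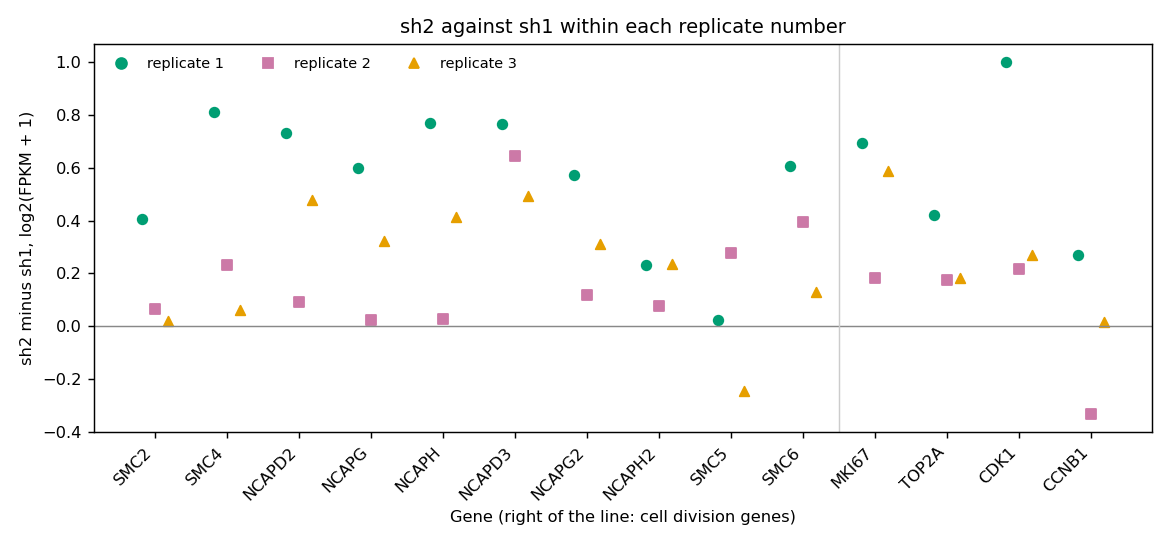
Difference between sh2 and sh1 in log2(FPKM + 1) within each replicate number, for the 10 subunit genes and, right of the line, 4 cell division genes. Of the 30 subunit points 29 lie above 0, where 48.1% to 50.4% of tested genes did within a number. Replicate 1 holds the highest point for 8 of the 10 genes.

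The balance between condensin I and II was read as ratios of counterpart subunits within a library, with no test. NCAPD2 to NCAPD3 was 3.74 ± 0.444 in the control (SD, n = 3), 4.69 ± 1.03 in sh1 and 3.92 ± 0.356 in sh2. The sh1 values of 4.56, 5.78 and 3.74 reached from inside the range of the other groups to well above it. NCAPG to NCAPG2 was 0.650 ± 0.0340, 0.589 ± 0.0324 and 0.584 ± 0.0189, and NCAPH to NCAPH2 was 0.511 ± 0.102, 0.465 ± 0.0472 and 0.552 ± 0.0666, in that order of groups. Of these only NCAPG to NCAPG2 in sh2 did not overlap with the control, its highest value of 0.603 being below the lowest control value of 0.619. SMC4 to SMC2 was 3.74 ± 0.194, 3.71 ± 0.364 and 4.27 ± 0.423. SMC5 to SMC6 was 2.12, 1.76 and 1.73 in sh1, above all 6 other libraries, of which control replicate 1 was lowest at 0.889. How often the ratios of other gene pairs lie wholly apart between groups was not computed. These non-overlaps therefore have no background to be set against.

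**Figure D4:**
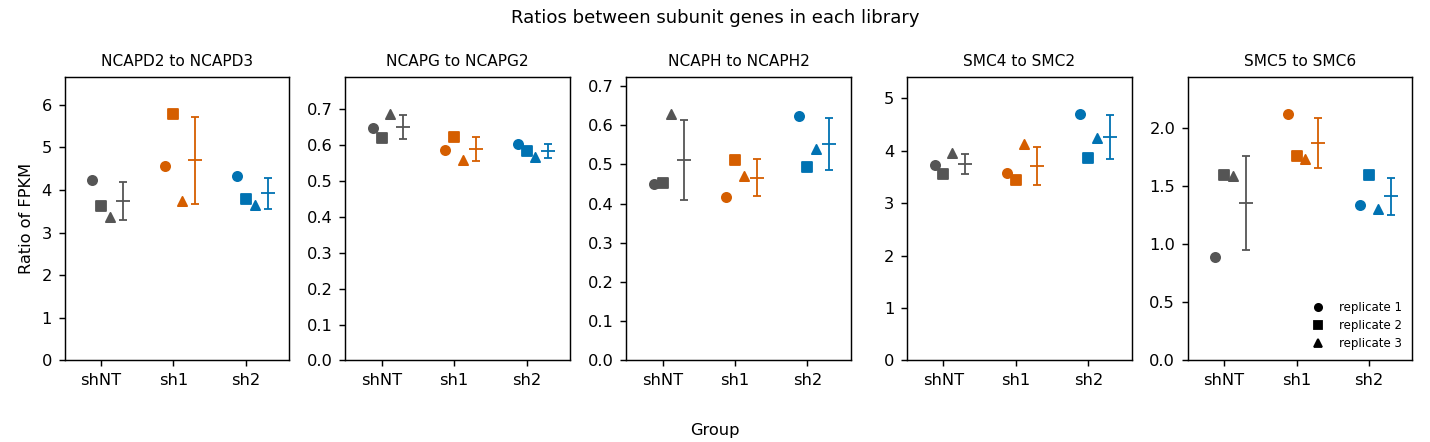
Ratio of FPKM between counterpart or partner subunits in each library, with the mean and SD (n = 3) beside the points of each group. The vertical axes start at 0 and differ in scale between panels. The sh1 ratios of SMC5 to SMC6 (1.73 to 2.12) lie above all others in that panel, and how often ratios of other gene pairs do so was not computed.

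SMC5/6 works with a set of non-SMC subunits and loading factors, of which all 7 listed genes were tested and 0 passed by limma in any comparison. NSMCE1, a RING-finger subunit, was lower under both hairpins: 34.9, 26.7 and 33.1 FPKM in the control, 14.9, 21.4 and 21.3 in sh1 and 15.4, 24.3 and 22.4 in sh2. All 6 silenced libraries were below all 3 control libraries (2.17% of tested genes), at a log2 fold change over both hairpins of -0.65 (SE 0.18, unadjusted p = 0.0043, limma adjusted p = 0.323). NSMCE4A, a kleisin-type subunit, showed the same order at 16.5, 14.1 and 12.8 FPKM in the control, 9.81, 12.1 and 12.3 in sh1 and 8.45, 10.8 and 12.1 in sh2 (-0.38, SE 0.14, limma adjusted p = 0.356). The other 5 overlapped with the control over both hairpins: the SUMO ligase NSMCE2 (-0.04), NDNL2, also called NSMCE3 (0.05), EID3 (-0.22), ANKRD32, also called SLF1 (0.13), and FAM178A, also called SLF2 (0.17). In sh2 against sh1 6 of the 7 were positive (48.9% of tested genes) with a median of 0.10. Of the 7, 1 lay wholly higher in sh2 (13.3% of tested genes) and 0 wholly lower (15.3%). Of the other SMC genes, SMC1A and SMC3, the motor pair of cohesin, differed from the control over both hairpins by 0.20 and -0.02, and SMCHD1 by 0.21, with 0 passing, and the germline SMC1B was below the level for testing. Between the hairpins SMC3 lay wholly higher in sh2 (0.21), SMC1A lay wholly lower (-0.17), and SMCHD1 overlapped (-0.02).

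Genes that act with condensin or in cell division were listed to set beside the subunits. Of 11 condensin partners 0 passed by limma in any comparison. In sh2 against sh1 7 were positive, where 48.9% of tested genes were, with a median of 0.11. Of the 11, 2 lay wholly higher in sh2 (13.3% of tested genes) and 0 wholly lower (15.3%). Of the 11, 2 had an unadjusted p under 0.05, where 14.1% of tested genes did: CDK1, the mitotic kinase that phosphorylates condensin (0.50), and MKI67, the Ki-67 chromosome surfactant (0.49). Over both hairpins the 4 with the largest difference were MKI67 (0.34), TOP2A, the topoisomerase that works beside condensin (-0.27), AURKB (-0.24) and CCNB1 (-0.21). AURKB read 43.1 FPKM in control replicate 1, which stood apart, against 21.1 and 22.6 in the other control libraries. CCNB1 read 77.2 there against 45.5 and 56.7, whereas MKI67 (15.0) and TOP2A (66.0) had their lowest control values there. These differences were not worked out without that library. The partners' summed level ranged over 430 to 505 FPKM in the control, 365 to 406 in sh1 and 391 to 503 in sh2. Of 20 cell division genes, 13 were positive in sh2 against sh1 (48.9% of tested genes), with a median of 0.090, and 0 passed. Only CENPF (0.47) had an unadjusted p under 0.05, 1 of 20 where 14.1% of tested genes did. Of the 20, 2 lay wholly higher in sh2 than in sh1 (13.3% of tested genes) and 0 wholly lower (15.3%). Over both hairpins, where 47.3% of tested genes were positive, 14 of the 20 were negative (median -0.10). The largest differences were in the replication genes MCM3 (-0.44), MCM7 (-0.43), PCNA (-0.31) and MCM5 (-0.22). Control replicate 1, which stood apart, was the highest control library for each of these. MCM3 and MCM7 lay wholly below the control, 2 of 20 genes against 2.17% of tested genes. The count and median were not worked out without control replicate 1. The summed level of the 20 genes was 914 to 1209 FPKM in the control, 823 to 918 in sh1 and 864 to 947 in sh2. The 1209 was that of control replicate 1, against 914 and 965 in the other control libraries. The part of these genes in the subunits' difference was not tested.

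The genes whose course over the 9 libraries was most like each subunit group were found by the root mean square difference of log2 levels after each gene's mean was removed. For the mean of NCAPD2, NCAPG and NCAPH these were the spindle protein NUSAP1 (0.060), the Fanconi anemia protein FANCD2 (0.066), the replication kinase subunit DBF4 (0.067), NUMBL (0.071) and GTSE1 (0.076), where the median tested gene differed by 0.331. NUSAP1, nearest of these, stood at 77.8, 67.6 and 58.8 FPKM in the control, at 53.7, 62.9 and 61.6 in sh1 and at 89.9, 61.6 and 74.4 in sh2. It too was highest in sh2 replicate 1 and in control replicate 1, the order also seen for NCAPH and NCAPG. Nearest to the mean of NCAPD3, NCAPG2 and NCAPH2 were ZNF487P (0.077), ZFP36L1 (0.084), TPP1 (0.085), B4GALT4 (0.089) and MPP3 (0.090), against a median of 0.325. For the mean of SMC5 and SMC6 they were CBLL1 (0.055), TBC1D8B (0.065), CLASP2 (0.067), SREK1 (0.067) and POLK (0.068), against 0.334, and their lowest library was control replicate 1 in each case. SMC5 was also lowest there (5.92 FPKM), whereas SMC6 was lowest in sh1 replicate 1 (5.88 FPKM), so this mean is not a course that both genes share. All these likenesses share the 9 libraries and their depth, and are descriptions.

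Overlapping genes limit some of these values. NCAPD2, NCAPD3, NCAPG, SMC4 and SMC6 each overlap a protein-coding gene on the opposite strand in the GENCODE annotation (MRPL51 for NCAPD2, JAM3 and VPS26B for NCAPD3, LCORL for NCAPG, IFT80 and TRIM59 among others for SMC4, and GEN1 for SMC6). The libraries were stranded, but whether the counting used strand is not given in the sources used here. In 9 of the 90 values of the 10 genes, spread over 7 genes, a lost decimal point was restored, as for NCAPD3 in control replicate 2 and SMC5 in sh1 replicate 3.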

How the data were processed

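RNA of 9 RT112 libraries was analysed from 1 table in which the authors deposited FPKM values for 23370 entries, 92 of them spike-ins. Per the submitters' processing notes, the genome build was hg19. Depth is unknown, so no counting interval is given, and aligner, quantifier, annotation and scaling are not given in these sources. Decimal points lost from 10255 of 210330 values (4.88%) were restored by division by 1000 where that reading lay nearer to the gene's other values. For 1332 values the gene had no other usable value, and these were divided where they were 1000 or more. All gene-wide tests used limma 3.58.1 in R 4.3.3 on log2(FPKM + 1), with a variance trend, all 9 libraries in 1 model and group as factor, for the 11952 genes that averaged 1 FPKM or more. P-values are two-sided, adjusted by Benjamini-Hochberg over all tested genes, with a threshold of 0.05. Fold changes on this scale understate changes of low genes. Same-numbered libraries tended to deviate together from their group means (r 0.118 to 0.491 in 9 pairs, against -0.629 to 0.205 in 18 others). These ranges overlapped, and the sources used here do not say what the numbers stand for, so pairing by number is not established. The fit above took no account of the numbers, and a fit with them as a block was an alternative. Members and lists were chosen with earlier results of these data known. The naming rule took all 10 subunits, all SMC5/6 accessory and other SMC genes, the 4 largest differences in the partner and division lists, and the 5 nearest genes per profile. Lengths are from GENCODE 29 and promoters from RefSeq.
One marker of another cell type is not reported here.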

Additional observations from a re-analysis of the deposited data

How the results depend on the processing

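Across 19 alternative settings, 18 of them planned, 703 of 750 log2 fold changes of the 10 genes kept their direction and side of the threshold, 46 turned in sign and 1 passed. That one was NCAPD3 in sh2 against sh1 with the replicate block and the length trend removed, a combination chosen after seeing the data (0.61, limma adjusted p = 0.0482). It moved the number of subunit genes passing there from 0 to 1, and the replicate block alone changed no call of these genes (lowest limma adjusted p 0.0892). No difference above 0.183 in size turned, and the cause of each turn was not tested. NCAPH2 in sh2 against control, at 0 in the fit above, was 0.00064 and 0.00015 with pseudocounts of 0.1 and 0.5, 0.017 with median-of-ratios scaling, 0.25 with spike-in scaling and 0.11 with the length trend removed. Spike-in scaling also turned NCAPG2 in sh1 against control (0.092) and, over both hairpins, NCAPD2 (0.13), NCAPH (0.085) and NCAPH2 (0.083). With the length trend removed, with or without the block, SMC2 (-0.076) and SMC4 (-0.071) turned in sh1 against control and SMC5 (-0.0099) in sh2 against sh1, and over both hairpins SMC2 (-0.0083), NCAPG (-0.053), NCAPH2 (0.0032) and SMC6 (-0.015) did. Leaving out each library in turn left the number passing at 0 in all 4 comparisons. It turned, in sh1 against control, SMC2 (-0.048 to 0.14), SMC4 (-0.074 to 0.099), NCAPG2 (-0.18 to 0.087) and NCAPH2 (-0.38 to 0.039). In sh2 against control it turned NCAPH (-0.050 to 0.29) and NCAPH2 (-0.20 to 0.22), and in sh2 against sh1 SMC5 (-0.075 to 0.11). Over both hairpins it turned NCAPD2 (-0.10 to 0.034), NCAPG (-0.12 to 0.10), NCAPH (-0.18 to 0.054), NCAPG2 (-0.017 to 0.25) and NCAPH2 (-0.29 to 0.13). STAG2 ranged from -2.64 to -2.14 without each library and missed the threshold without control replicate 3 (-2.30, limma adjusted p = 0.0561) and with no filter on low genes (-2.36, limma adjusted p = 0.0616). Depth was not stated for any library, so its limit on these values is unknown.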
